A study of Nilaparvata lugens with 9 samples.

Results

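The miRNAs described here are conserved miRNAs of *Nilaparvata lugens*, the brown planthopper (BPH) that sucks the sap of rice, which lie outside the best-known insect families. A sequence was taken when it matched a known miRNA of the miRBase database, had a position on the BPH genome, and did not belong to let-7, bantam, iab-4 or 32 other well-studied miRNA numbers such as miR-1, miR-9, miR-34, miR-184 and miR-275. This gave 69 of the 759 distinct sequences of the expression table, or 69 of the 197 sequences with a known name. They are called conserved by this match alone, and whether those with the names mir-6497, mir-3759, miR-2779 or mir-3720 are pieces of other RNAs such as rRNA was not tested. The sequences carried 34 family numbers, and 28 of these families reached a level that could be tested. Small RNA of whole bodies of untreated short-winged (SW) female adults was sequenced in 3 phases of adult life, named 1 d, 3 d and 5 d for the days since the last moult. Each phase had 3 libraries. Each sample was a pool of insects, and whether the 3 libraries of a phase came from separate pools is not stated, so p-values measure only the spread between these libraries. In whole bodies, a tissue that shrinks and a tissue that makes less of a miRNA cannot be told apart.

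A miRNA is cut from one arm of an RNA hairpin, and it finds its target mRNAs mainly by pairing with the bases 2 to 8 of its 5′ end, called the seed. The strand loaded into the silencing complex accumulates, and the strand from the opposite arm is usually degraded. A change at the 3′ end of a miRNA, by which many of its length forms (isoforms) arise, leaves the seed in place, whereas a shift at the 5′ end gives a new seed. Families kept between distant insects, such as miR-7, miR-278, miR-279, miR-281 and miR-315, are known mostly from the fruit fly *Drosophila*.

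The sequences that follow carry most of the reads of the group, and they are shown because seed and length organise the results. The prefix of a name gives the species of the miRBase match, R or L with a number gives bases added or missing at the 3′ or 5′ end, and "ss" gives substitutions. Letters are those of the sequenced DNA, with T for U, the seed is in capitals, and each is written 5′ to 3′. The first set holds the miR-279 family with its fly relative miR-996, which share the seed GACTAGA in all 5 members.
tca-miR-279b-3p: tGACTAGAtccacactcatcca
tca-miR-279b-3p_R-1: tGACTAGAtccacactcatcc
tca-miR-279b-3p_R-2_1ss19TA: tGACTAGAtccacactcaac
tca-miR-279d-3p_R-3_2ss12AT22AG: tGACTAGAtccttactcgtctg
api-miR-996_R-2: tGACTAGAgttacactcgt

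A second set holds the other abundant miRNAs, together with both arms of the miR-281 hairpin and a longer form of its 3p arm.
dme-miR-278-3p_1ss21TC: tCGGTGGGactttcgtccgtct
api-miR-281_R+1: tGTCATGGagttgctctcttta
tca-miR-281-3p_R+2: tGTCATGGagttgctctctttaa
sfr-miR-281-5p: aAGAGAGCtatccgtcgacagt
tca-miR-281-5p_L+1: cAAGAGAGctatccgtcgacagt
tca-miR-2765-5p: tGGTAACTccaccaccgttggc
aae-miR-306-5p_2ss1TA20CG: aCAGGTACtgagtgactctgag
tca-miR-7-5p_R-1: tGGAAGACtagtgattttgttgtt
tca-miR-87b-3p_R-2_1ss11AT: gTGAGCAAagtttcaggtgtgt
aga-miR-2796-3p: gTAGGCCGgcggaaactacttgc
tca-miR-2796-3p_R+1: gTAGGCCGgcggaaactacttgct

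The third set holds less abundant miRNAs on which the comparison of the phases turned.
tca-miR-315_R+1: tTTTGATTgttgctcagaaagcc
tca-miR-92a-3p_L+1R+1_1ss10AT: tATTGCACttgtcccggcctat
tca-miR-92b-3p_L+1R+1: aATTGCACttgtcccggcctgc
ame-miR-3049-3p_L+1R-2: aTCCGTCCaactcctttccgt
tca-miR-3049-5p_R+2_1ss9AG: tCGGGAAGgcagttgcggcggatt
dqu-mir-3759-p3_1ss13CT: aCGTTGACtgggtgtccgcact
ame-mir-29b-p3_1ss17CT: tAGCACCAtttgaaattagt
bmo-mir-6497-p3_1ss19CT: aAGGATTGgctctgaggatc

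The 9 libraries held between 972506 and 3184052 reads on the listed miRNAs, and the group held 1605617 of 19337134.5 reads, or 8.3%. The share of reads was 9.29%, 6.9% and 7.47% in the 1 d libraries, 10.4%, 7.41% and 7.5% at 3 d, and 9.37%, 9.04% and 7.02% at 5 d. The mean share was 7.89% ± 1.25 (SD, n = 3) at 1 d, 8.45% ± 1.73 at 3 d and 8.48% ± 1.27 at 5 d, so the phases overlapped. As a check of the whole body, the muscle miRNAs were abundant, with miR-1 at 43140.4 to 62921.0 CPM (normalised read count scaled to the size of the library) and miR-133 at 1996.3 to 4090.3 CPM. The nervous system miRNA miR-124 lay at 402 to 1724.1 CPM, and no sequence carried the name of miR-989, a miRNA of the follicle cells of the fly ovary.

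Reads were unevenly spread over the group. The most abundant sequence, miR-278-3p, held 24.8% of the reads of the group, the first 5 held 58.5%, and the first 10 held 84.6%. At the other end, 19 of the 69 sequences had under 10 reads over all libraries, as had 141 of the 759. By origin, 7 sequences were identical to a miRBase entry and held 28.6% of the reads, 30 were variants of an entry with 70.7%, and 32 were newly found arms or relatives of a known hairpin with 0.673%. At least 1 read in each of the 3 libraries was found for 43 sequences at 1 d, 41 at 3 d and 41 at 5 d, against 277, 290 and 300 of the 759. In every phase the same 40 sequences were detected by this rule.

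**Figure D1:**
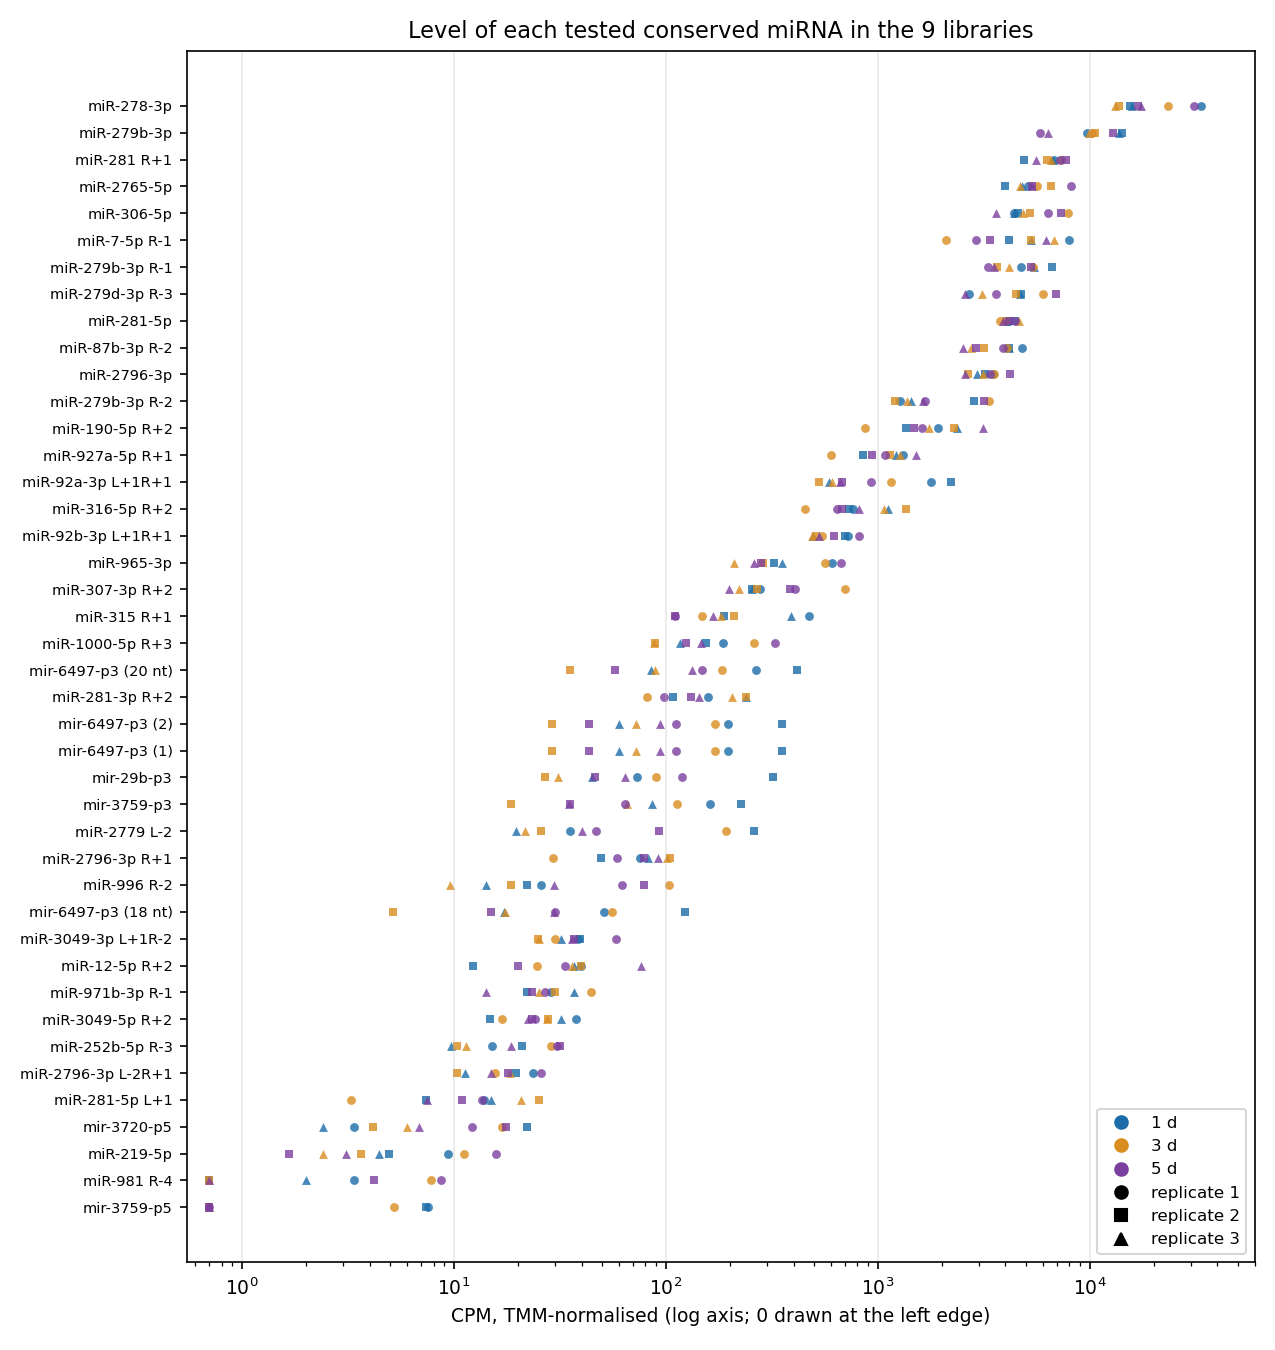
Level of each of the 42 tested sequences in the 9 libraries, in CPM after TMM normalisation on a log axis, one line per sequence in order of the mean level. Colours are phases, symbols are replicates, and a value of 0 is drawn at the left edge; miR-278-3p lies between 13136.9 and 33284.2 CPM, and miR-281-5p spans the narrowest range.

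Metabolism and growth were represented by miR-278-3p, which in *Drosophila* acts in the fat body on the response to insulin. Its level was 33284.2, 15543.6 and 15884.1 CPM at 1 d, 23451.4, 13721.2 and 13136.9 CPM at 3 d, and 31171.8, 16785.3 and 17527.2 CPM at 5 d. Replicate 1 stood above the other libraries in each phase, as it did for miR-965-3p and miR-1000-5p among others, and the phases overlapped widely. The log2 fold change was -0.36 ± 0.39 (SE) for 3 d vs. 1 d and 0.02 ± 0.39 for 5 d vs. 1 d, with adjusted p of 1.0 and 0.986 in edgeR's quasi-likelihood test. Leaving out 1 library moved the latter value between -0.40 and 0.46. A predicted candidate with the same first 18 bases as miR-278-3p had 24210 reads. In contrast to miR-278-3p, this candidate was highest in replicate 2 of each phase, at 1497.9, 1576.1 and 1849.2 CPM. Also in this list was miR-927a-5p, known in *Drosophila* for acting on the juvenile hormone response gene Kr-h1, with its lowest library at 599 CPM, its median at 1142.5 CPM and its highest at 1510.9 CPM. Of the 4 tested members of the list, miR-278-3p, miR-927a-5p, miR-981 and mir-29b-p3, 0 passed the test in any comparison, and their median log2 fold change was -0.26 for 3 d vs. 1 d and 0.04 for 5 d vs. 1 d. For 5 d vs. 3 d the median was 0.51 with 4 of 4 values positive, beside -0.04 over all tested sequences. Each value was smaller than its SE. It was 0.38 ± 0.39 for miR-278-3p, 0.23 ± 0.34 for miR-927a-5p, 0.79 ± 1.93 for miR-981 and 0.64 ± 0.78 for mir-29b-p3. The miR-981 sequence had 59 reads, or 0.574% of the reads with its first 18 bases. A longer sequence with these bases was at 675, 516 and 445 CPM at 3 d and 396, 601 and 238 CPM at 5 d.

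The nervous system and senses list had 15 members, of which 13 were tested, and it included the miR-279 family, miR-7, miR-87, miR-92 and miR-315. In flies miR-279 shapes the carbon dioxide sensing neurons and acts in the output of the circadian clock. The 22 nt form of miR-279b-3p was found at 9736.5, 14162.5 and 13719.0 CPM at 1 d, 10277.5, 10537.5 and 9921.0 CPM at 3 d, and 5848.6, 12919.5 and 6376.8 CPM at 5 d. It was lowest in 2 of the 3 libraries of 5 d, while the remaining one, 5 d replicate 2, lay within the 1 d range. For 5 d vs. 1 d the log2 fold change was -0.58 ± 0.31 with an adjusted p of 0.573 (edgeR). The 21 nt form gave -0.47 ± 0.27 with an adjusted p of 0.588, whereas the 20 nt sequence gave 0.22 ± 0.49 with 0.924, and miR-279d-3p gave 0.11 ± 0.41 with 0.98. None passed the test. Of the libraries left out singly, 5 d replicate 2 moved the values of the 22 nt form, the 21 nt form and miR-279d-3p most. Without it they were -1.08 (unadjusted p = 0.00237, adjusted p = 0.15, edgeR), -0.77 and -0.45. Without 5 d replicate 1 or 5 d replicate 3 the 22 nt form gave -0.44 and -0.48, with adjusted p of 0.748 and 0.692 (edgeR).

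Sequences with the miR-279 seed were more numerous than the members, since 16 of the 759 had it and 5 were members. The 5 members held 50.0% of the 805650.5 reads with this seed. Most of the other reads were on a sequence named as a predicted candidate (PC), which differs from miR-279b-3p after base 18 and contains the whole 20 nt sequence named miR-279b-3p_R-2_1ss19TA. It is printed because the level of the 20 nt sequence has to be read beside it.
PC-3p-31_242819: tGACTAGAtccacactcaaca

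This candidate had 369259 reads against 35881 for the 20 nt sequence, and both lay on the same strand of scaffold NW_019105631.1, with hairpins starting at 339471 and 339472. Over all sequences with the first 18 bases of miR-279b-3p, the 3 members held 46.4% of the reads. The summed level of the seed was 30230.5, 51021.3 and 47835.1 CPM at 1 d, 48357.8, 43453.9 and 39832.5 CPM at 3 d, and 26981.3, 65199.8 and 28519.6 CPM at 5 d. The sum was thus highest and lowest within 5 d. On the same scaffold and strand the hairpin of miR-279d-3p started at 338212, 1260 nt from that of the 20 nt sequence. The 22 nt form of miR-279b-3p was listed on other scaffolds.

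The shortest member of the seed group, miR-996, is the closest relative of miR-279 in *Drosophila*. Its level was 25.6, 22.1 and 14.1 CPM at 1 d, 103, 18.6 and 9.61 CPM at 3 d, and 61.8, 78.5 and 29.7 CPM at 5 d. All libraries of 5 d lay above all libraries of 1 d, and 3 d held both the highest and the lowest library. For 5 d vs. 1 d the log2 fold change was 1.46 ± 0.82 with an adjusted p of 0.588 (edgeR), and the exact permutation test gave p = 0.1, which is the smallest p that 3 libraries against 3 allow. The sequence is 19 nt long, and the libraries in which it was high are considered with the read lengths further on.

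Vision and sense organ formation in the fly involve miR-7, which here was 24 nt long. It was found at 7933.1, 4160.5 and 5275.4 CPM at 1 d, 2099.3, 5262.6 and 6740.2 CPM at 3 d, and 2908.5, 3394.2 and 6228.1 CPM at 5 d. The highest library exceeded the lowest 3.78-fold, and the phases overlapped. In the fly miR-87 acts in the regrowth of neuronal dendrites. Its 3p form miR-87b-3p was at 4802.5, 4158.0 and 4170.5 CPM at 1 d, at 4046.5, 3183.7 and 2755.7 CPM at 3 d, and at 3881.9, 2918.9 and 2529.9 CPM at 5 d. Every library of 1 d lay above every library of 3 d and 5 d. Within each phase replicate 1 was the highest. The log2 fold change was -0.40 ± 0.24 for 3 d vs. 1 d and -0.49 ± 0.24 for 5 d vs. 1 d, with adjusted p of 0.857 and 0.495 (edgeR), so the difference did not pass the test.

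The smallest p among the members was that of miR-315, a 23 nt miRNA that in *Drosophila* raises Wingless signalling by acting on Axin and Notum. It was found at 471, 188 and 389 CPM at 1 d, 148, 209 and 181 CPM at 3 d, and 110, 110 and 167 CPM at 5 d. All 1 d libraries lay above all 5 d libraries, although 1 d replicate 2 was within the range of 3 d. The mean was 349 ± 145 (SD, n = 3) CPM at 1 d, 179 ± 30.3 CPM at 3 d and 129 ± 33.1 CPM at 5 d. The log2 fold change was -0.96 ± 0.39 for 3 d vs. 1 d (unadjusted p = 0.0347, adjusted p = 0.512, edgeR) and -1.44 ± 0.39 for 5 d vs. 1 d (unadjusted p = 0.00502, adjusted p = 0.181, edgeR). Over 22 alternatives the 5 d vs. 1 d value lay between -1.74 and -1.18, with p from 0.0547 to 0.452. These p-values were adjusted, except 0.0679 from the unadjusted test of the study's methods. The lowest came from edgeR without 1 d replicate 2 and 3 d replicate 1, a setting chosen after seeing these data. The lowest adjusted p of a planned setting was 0.0683, from DESeq2.

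Next in the same list was the miR-92 family, which in *Drosophila* acts in neural stem cells and in muscle through Mef2. The miR-92a-3p level was 1780.1, 2206.3 and 589 CPM at 1 d, 1146.9, 530 and 605 CPM at 3 d, and 928, 679 and 660 CPM at 5 d. Only 1 d replicate 1 and 1 d replicate 2 were above all libraries of the later phases, whereas 1 d replicate 3 was lower than every 5 d library. The log2 fold change for 5 d vs. 1 d was -1.01 ± 0.48 with an adjusted p of 0.478 (edgeR), and it lay between -1.52 and -0.66 when libraries were left out. Its neighbour miR-92b-3p, with the same seed ATTGCAC, gave 0.04 ± 0.27 with an adjusted p of 0.986 (edgeR) in the same comparison and a range of 490 to 812 CPM.

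Hairpins of miR-92a and miR-92b lay beside each other on the plus strand of scaffold NW_019105831.1. Those of miR-92a started at 604329 and 629165, and those of miR-92b at 610325 and 635079, so that each miR-92a hairpin had a miR-92b hairpin 5996 or 5914 nt after it. Both copies of miR-92a give the same mature sequence, as do both copies of miR-92b, and the reads of such copies cannot be told apart.

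For the whole list, 0 of 13 tested members passed the test in any comparison. The median log2 fold change of the list was -0.29 for 3 d vs. 1 d, -0.45 for 5 d vs. 1 d and -0.05 for 5 d vs. 3 d, beside 0.06, 0.05 and -0.04 over all 341 tested sequences. In 5 d vs. 1 d, 6 members had a positive and 7 a negative value, between -1.44 and 0.84. The median was the value of miR-971b-3p, and the next higher value was 0.04, of miR-92b-3p. The 22 and 21 nt forms of miR-279b-3p were both among the negative values.

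Cell cycle, apoptosis and germ line functions were represented by miR-306, miR-12, miR-307 and miR-965. In the fly miR-306 is encoded with miR-9 and miR-79 in a cluster. Here too the hairpin of miR-306-5p, at 44686 on scaffold NW_019105629.1, lay 2890 nt from a miR-9 hairpin where both arms are listed, and a second copy on scaffold NW_019113502.1 lay 3148 nt from the same miR-9 sequence. The miR-306-5p level was 4371.5, 4579.8 and 4401.3 CPM at 1 d, 7861.6, 5198.5 and 4838.5 CPM at 3 d, and 6338.5, 7319.0 and 3611.5 CPM at 5 d. All 3 d libraries were above all 1 d libraries, and the 5 d libraries lay on both sides. The log2 fold change was 0.42 ± 0.30 for 3 d vs. 1 d with an adjusted p of 0.877 (edgeR).

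Its seed CAGGTAC is also that of miR-275-3p, which had 267839 reads beside the 104723 of miR-306-5p. The sequences agree in bases 2 to 8 and differ in their first base and in the 3′ part.
tca-miR-275-3p: tCAGGTACctgaagtagcgcgcg

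In *Drosophila* miR-965 acts in abdominal histoblasts on string and wingless. Here miR-965-3p lay between 209 and 669 CPM with its median at 322 CPM, and it was highest in 5 d replicate 1, 1 d replicate 1 and 3 d replicate 1. Of miR-307-3p the highest library was 3 d replicate 1 with 698 CPM, and the other libraries lay between 199 and 406 CPM. The fly miR-12 acts on components of the Hedgehog pathway, and miR-12-5p lay between 12.3 and 76.2 CPM. Among the 4 tested members of the list 0 passed the test, and their median log2 fold change was 0.29 for 3 d vs. 1 d, 0.35 for 5 d vs. 1 d and 0.07 for 5 d vs. 3 d.

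The remaining members included miR-281, miR-2765, miR-2796, miR-190 and miR-3049. In the silkworm miR-281 acts on an ecdysone receptor isoform. Both of its arms were abundant. The 3p arm was found at 6784.0, 4867.6 and 6689.0 CPM at 1 d, 7284.9, 6283.7 and 6535.4 CPM at 3 d, and 7198.9, 7681.1 and 5572.7 CPM at 5 d. The 5p arm was found at 4104.5, 4433.5 and 4073.6 CPM at 1 d, 3775.4, 4029.1 and 4616.6 CPM at 3 d, and 4449.0, 4154.0 and 3875.4 CPM at 5 d. No other tested member varied less than the 5p arm, whose coefficient of variation over the 9 libraries was 6.69% beside medians of 27.0% over the 15 members and 27.8% over the 54 sequences with a mean above 1000 CPM. Over all levels the medians were 41.2% for the 42 tested members and 51.3% for all 341.

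The insect miRNA miR-2765-5p was found at 5105.2, 3969.8 and 4768.0 CPM at 1 d, 5602.3, 6587.0 and 4677.3 CPM at 3 d, and 8147.4, 5351.2 and 5334.2 CPM at 5 d. The 5 d libraries were all above those of 1 d, and the log2 fold change was 0.44 ± 0.25 with an adjusted p of 0.587 (edgeR). Without 5 d replicate 1 it was 0.14. A predicted candidate with the same seed GGTAACT had 709129 reads, more than the 108634 of miR-2765-5p. It is shown because a level of miR-2765 alone covers a small part of the reads with this seed.
PC-5p-15_408936: tGGTAACTccgaaccaccgttgg

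The miR-3049 hairpin was present in 2 copies on the minus strand of scaffold NW_019106647.1, starting at 37311 and 72031, and its arms were nearly balanced, with 519 reads on the 5p and 690 on the 3p arm. The 3p arm was found at 38.4, 39.4 and 31.8 CPM at 1 d, 29.9, 24.8 and 25.2 CPM at 3 d, and 58.0, 36.8 and 35.9 CPM at 5 d. All 3 d libraries lay below those of both other phases. The log2 fold change was -0.45 ± 0.37 for 3 d vs. 1 d and 0.71 ± 0.37 for 5 d vs. 3 d, with adjusted p of 0.922 and 0.992 (edgeR). For the 5p arm the values were -0.23 ± 0.46 and -0.06 ± 0.46.

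The miRNA miR-2796, which in the honeybee lies in an intron of a phospholipase C gene, was found as a 3p form of 23 nt at 2568.3 to 4199.1 CPM. The gene of miR-190 lies in an intron of a talin gene in flies, and miR-190-5p was found at 870 CPM in 3 d replicate 1 and at 1356.5 to 3118.4 CPM in the other libraries. Neither passed the test in any comparison.

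Over the 42 tested members, 0 passed the threshold of 0.05 on the adjusted p in any pair of phases or in all phases together (edgeR). The share of all 341 tested sequences that passed was 0.0% for 3 d vs. 1 d, 1.47% for 5 d vs. 1 d, 0.0% for 5 d vs. 3 d and 1.17% for all phases, so a count of 0 among 42 is near the background. DESeq2 and limma also called 0 members in each comparison. At an unadjusted p below 0.05, edgeR gave 1 member for 3 d vs. 1 d, beside 8.5% of all tested sequences. It gave 2 for 5 d vs. 1 d, beside 11.4%, while the count for 5 d vs. 3 d was 0, beside 2.35%. These were miR-315 in both comparisons with 1 d, and mir-3759-p3 in 5 d vs. 1 d. The test on normalised values of the study's methods, with no adjustment and no filter, called 2 members for 3 d vs. 1 d (4.35% of all sequences it could test), 0 for 5 d vs. 1 d (4.67%), 1 for 5 d vs. 3 d (2.36%) and 1 over all phases (3.95%). Asking in addition for an absolute log2 fold change above 1 left 1 member between 3 d and 1 d (2.55%), mse-mir-316-p3, which had 24 reads in all and 0 reads at 1 d. The other calls were of miR-3049-3p.

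The libraries of the phases did not overlap for 3 members in 3 d vs. 1 d, beside 10.3% of all tested sequences. In 5 d vs. 1 d this was so for 5 members beside 18.2%, with 2 higher and 3 lower at 5 d. Between 5 d and 3 d this held for 1 member beside 5.87%. As a share of 42, none of these counts was above that of the table. The median absolute log2 fold change of the tested members was 0.30 for 3 d vs. 1 d, 0.44 for 5 d vs. 1 d and 0.29 for 5 d vs. 3 d, beside 0.42, 0.54 and 0.36 over all tested sequences. An absolute log2 fold change of at least 1 was reached by 9 members for 3 d vs. 1 d, beside 21.7% of all tested sequences, and by 10 for 5 d vs. 1 d, beside 29.9%. Both counts include the 4 tested mir-6497 sequences, which overlap each other and are not independent, and both arms of mir-3759. For 5 d vs. 3 d the limit was reached by 1 member beside 15.0%, namely mir-3759-p5, whose fitted value comes from 0 reads at 5 d. None of these passed the test.

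**Figure D2:**
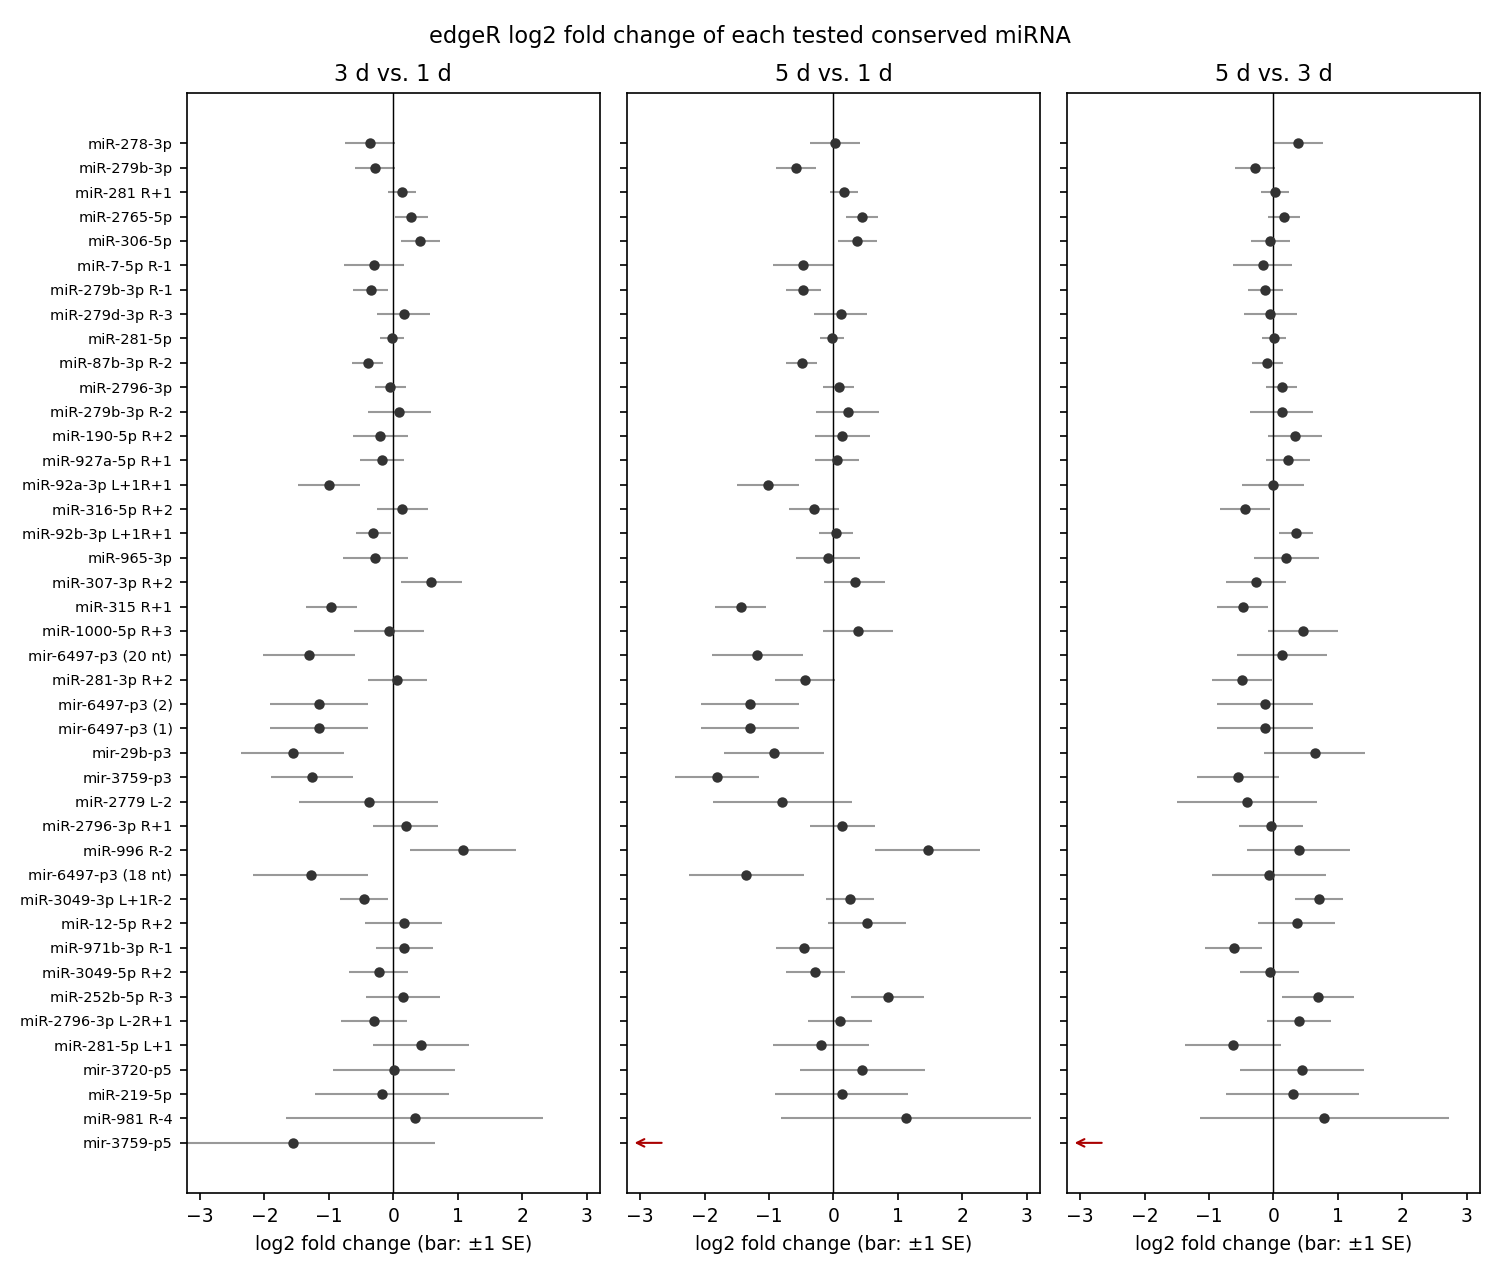
The edgeR log2 fold change of each of the 42 tested members in the 3 comparisons, with bars of 1 SE, in the order of the mean level. None passed the test; the arrow marks mir-3759-p5, whose value lies outside the axis because it had 0 reads at 5 d.

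**Figure D3:**
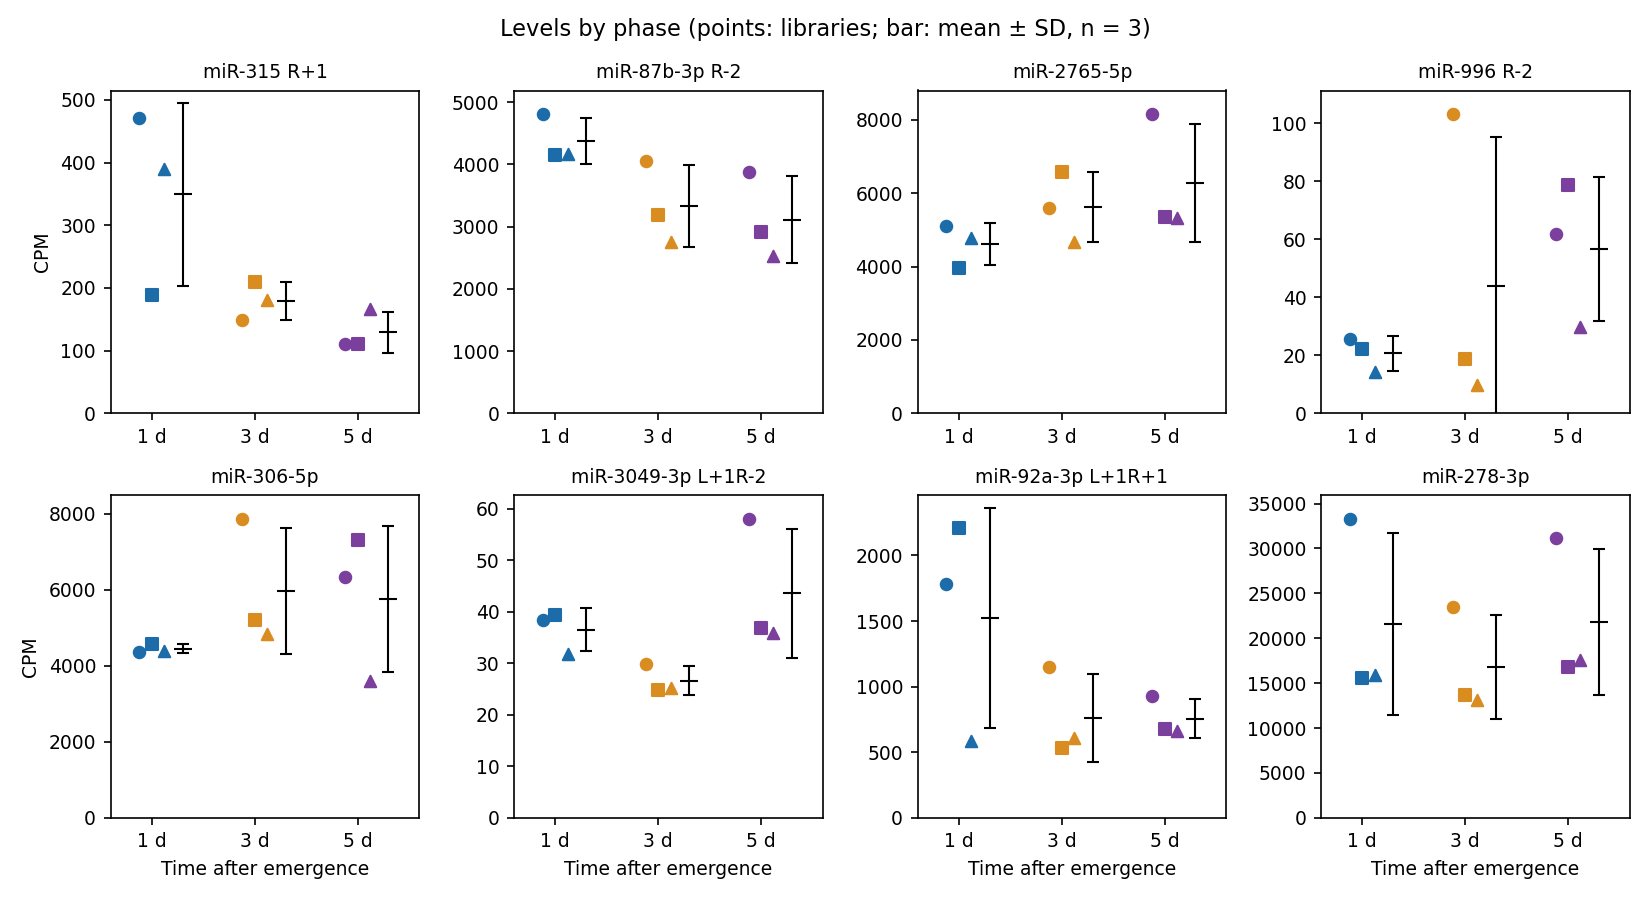
Levels in CPM of 8 members by phase, with 1 point per library (circle, square and triangle for replicates 1, 2 and 3) and a bar for the mean ± SD of 3 libraries. For miR-315 all 1 d libraries lie above the 5 d libraries, at 188 to 471 CPM against 110 to 167 CPM.

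Both arms were among the tested members for 4 hairpin entries of the group. The log2 ratio of the 5p to the 3p arm of miR-281 was -0.53 ± 0.34 (SD, n = 3) at 1 d, -0.70 ± 0.23 at 3 d and -0.70 ± 0.18 at 5 d, so the 3p arm was the higher one in every library. Over the 280 groupings of the libraries an exact permutation test gave p = 0.714 for this pair. The miR-3049 ratio was -0.47 ± 0.79 at 1 d, -0.17 ± 0.55 at 3 d and -0.86 ± 0.34 at 5 d (p = 0.375, exact permutation test). The longer forms of the miR-281 arms gave p = 0.882 in the same exact permutation test. After adjustment over the 36 arm pairs tested in the table, these p-values were 0.937, 0.937 and 0.962 (exact permutation test), and 0 of the 36 pairs passed. For mir-3759 no test is given, since its p5 arm had 0 reads in 6 of 9 libraries, where the ratio is set by the pseudocount.

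**Figure D4:**
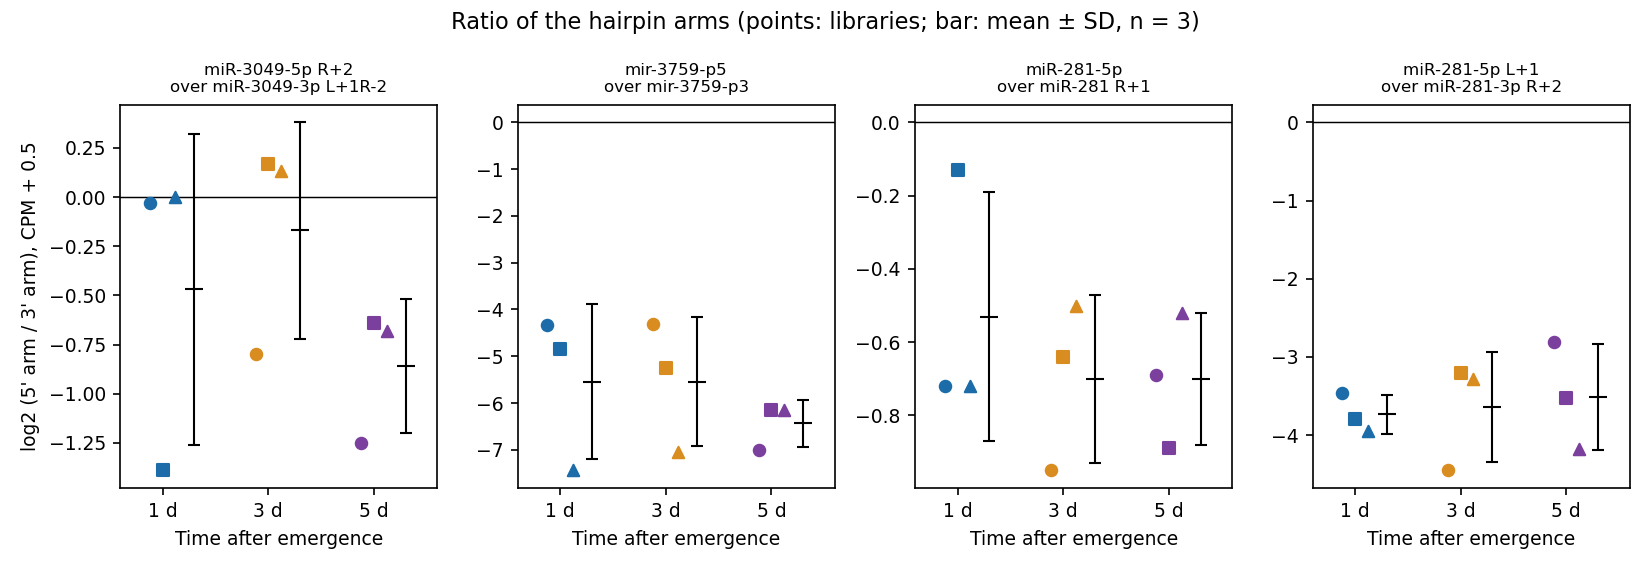
Log2 ratio of the 5′ arm to the 3′ arm of 4 hairpin entries by phase, from CPM plus 0.5, with 1 point per library and a bar for the mean ± SD of 3 libraries. The line at 0 marks equal arms. For the abundant forms of the miR-281 arms all 9 libraries lie between -0.95 and -0.13, and for the longer forms between -4.45 and -2.81. The ratios of mir-3759 are set by the pseudocount in the 6 libraries with 0 reads of its p5 arm.

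Of the other hairpins, that of miR-2796 was one-sided. Its 3p arm had 63296 reads and its 5p arm had 5, all in 3 d replicate 1. The 5p arm of miR-316 had 16900 reads, and its 3p form mse-mir-316-p3 had 24. That 3p form is 19 nt long and held 0.137% of the reads with its first 18 bases. A predicted candidate of 22 nt with the same first bases had 17554 reads, and its hairpin started at 70891 on scaffold NW_019106352.1, 14 nt from that of miR-316, so the candidate and the 5p arm had like numbers of reads. The 18 nt form of miR-981 likewise held 0.574% of the reads with its first 18 bases. For these members a low level is that of a short form.

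The share of reads by sequence length differed between libraries of the same phase. The 18 to 20 nt sequences made up 2.19%, 5.79% and 2.15% of the reads of the group in the 1 d libraries, 4.9%, 1.88% and 2.38% at 3 d, and 2.62%, 4.18% and 3.07% at 5 d. Sequences of 23 to 24 nt made up 15.2%, 11.9% and 15.4% at 1 d, 8.1%, 16.5% and 18.5% at 3 d, and 9.92%, 11.7% and 19% at 5 d. The library 3 d replicate 1 was thus the lowest for long members, and 1 d replicate 2 the highest for short ones. Single sequences carry much of these shares, such as the 24 nt miR-7 with 99339 reads and the 20 nt miR-279 sequence with 35881. Over the whole table the 23 to 24 nt share was 16.5% in 1 d replicate 2, the lowest, and 22.5% in 3 d replicate 1. Of the 10 tested members of at least 23 nt, 6 were lowest in 3 d replicate 1, beside 28.7% of the 122 tested sequences of that length. These included miR-7, miR-190 and miR-316. Among the 122, the library 1 d replicate 2 was lowest more often, for 41.0%, beside 2 of the 10 members. Of the 11 tested members of at most 20 nt, 7 were highest in 1 d replicate 2, beside 29.5% of 61, but several of these share reads.

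Forms with the same 5′ end were compared next. For every 100 CPM of the 22 nt form of miR-281-3p, the 23 nt form had 2.33, 2.22 and 3.55 at 1 d, 1.12, 3.79 and 3.14 at 3 d, and 1.37, 1.71 and 2.57 at 5 d. For every 100 CPM of the 23 nt form of miR-2796-3p, the 24 nt form had 2.16, 1.53 and 2.80 at 1 d, 0.832, 3.97 and 3.22 at 3 d, and 1.74, 1.87 and 3.57 at 5 d. Both ratios were lowest in 3 d replicate 1 and highest in 3 d replicate 2. The 24 nt form of miR-2796-3p was listed on other scaffolds than the 23 nt form. The shorter 20 nt sequence with the miR-279 seed had 11.9, 13.3 and 6.87 per 100 CPM of the candidate that contains it at 1 d, 15.2, 5.70 and 7.10 at 3 d, and 14.8, 9.21 and 12.7 at 5 d. This ratio was highest in 3 d replicate 1 and lowest in 3 d replicate 2. Per 100 CPM of the 22 nt form of miR-279b-3p, the 21 nt form had 48.8, 46.9 and 39.5 at 1 d. It had 52.7, 34.6 and 41.8 at 3 d, and 56.4, 40.9 and 55.3 at 5 d. This last ratio was also lowest in 3 d replicate 2, but it was highest in 5 d replicate 1. It was higher in 5 d replicate 3, which had the largest share of 23 to 24 nt sequences (19%), than in 3 d replicate 1. The short miR-996 was at 103 CPM in 3 d replicate 1. In 1 d replicate 2, which had the largest share of 18 to 20 nt sequences (5.79%), it was at 22.1 CPM. In 5 d replicate 1 and 5 d replicate 2 it was at 61.8 and 78.5 CPM, with shares of 2.62% and 4.18%. The part of read length in the differences between phases was not tested. Leaving out 1 d replicate 2 and 3 d replicate 1 together, a setting chosen after seeing these data, left 0 members called in each comparison (edgeR). The log2 fold change of miR-996 for 5 d vs. 1 d was then 1.5 (unadjusted p = 0.0236, adjusted p = 0.362, edgeR). With all libraries it was 1.46 (unadjusted p = 0.109, adjusted p = 0.588, edgeR).

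**Figure D5:**
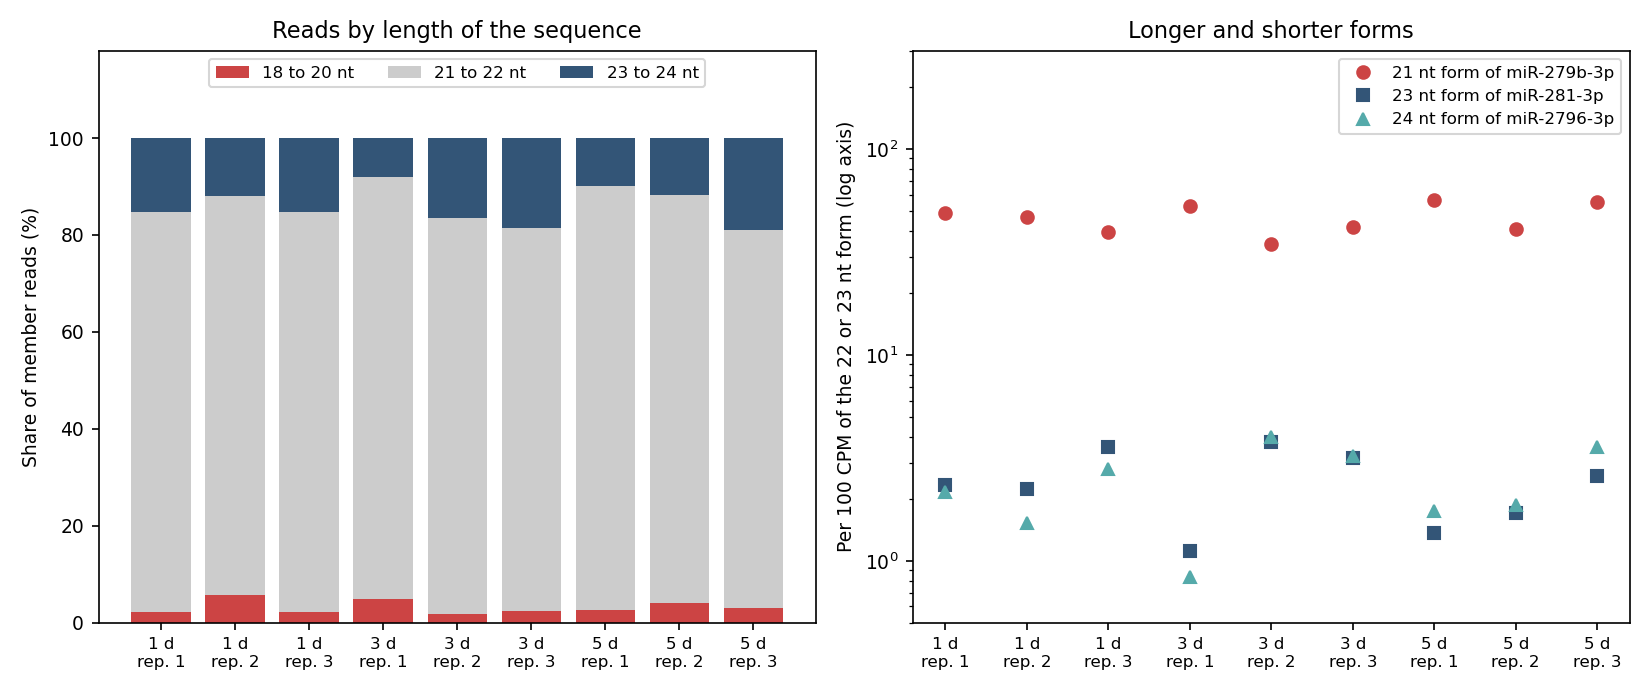
Left, the share of the reads of the group in sequences of 18 to 20, 21 to 22 and 23 to 24 nt in each library. Right, on a log axis, the CPM of the 21 nt form of miR-279b-3p, the 23 nt form of miR-281-3p and the 24 nt form of miR-2796-3p per 100 CPM of the 22, 22 and 23 nt form; the latter 2 are lowest in 3 d replicate 1, at 1.12 and 0.832.

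The new arms and distant matches were the least abundant part of the group. The name mir-6497 alone was given to 17 sequences with 7468 reads on 17 scaffolds, of which 4 were tested. They are windows of 1 stretch: 12 of the 17 lie without a mismatch in a joined sequence of 39 bases, and all overlap another by at least 10 bases. The forms bmo-mir-6497-p3_1ss2TC_1 and bmo-mir-6497-p3_1ss2TC_2 had the same 2068.5 reads in total and the same reads in each library, so they count the same molecules. The most abundant, bmo-mir-6497-p3_1ss19CT, was at 267, 413 and 85.2 CPM at 1 d, 183, 35.1 and 88.9 CPM at 3 d, and 148, 57.2 and 132 CPM at 5 d. Its highest library exceeded the lowest 11.8-fold, with 1 d replicate 2 the highest and 3 d replicate 2 the lowest.

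A like pattern was seen for mir-29b-p3 and mir-3759-p3. In mammals miR-29 acts on collagens, and the mir-29b-p3 sequence, with the seed AGCACCA of that family, was at 319 CPM in 1 d replicate 2 and at 26.9 to 119 CPM in the other libraries. Its log2 fold change for 3 d vs. 1 d was -1.56 ± 0.80 with an adjusted p of 0.629 (edgeR), and it came to -0.27 without 1 d replicate 2. A predicted candidate with the same seed had 6513 reads, beside 1387 of mir-29b-p3. This candidate was at 338, 224 and 212 CPM at 1 d, 371, 197 and 266 CPM at 3 d, and 700, 263 and 360 CPM at 5 d. The level of mir-3759-p3 was 161, 225 and 86.0 CPM at 1 d, 113, 18.6 and 65.4 CPM at 3 d, and 64.1, 35.1 and 34.7 CPM at 5 d. All 1 d libraries lay above all 5 d libraries, and the log2 fold change was -1.81 ± 0.65 (unadjusted p = 0.0201, adjusted p = 0.331, edgeR). Its opposite arm mir-3759-p5 had 33.5 reads in 3 libraries and 0 reads at 5 d, where 3 reads over the phase (0.45 CPM) would be the limit, so no fold is given.

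Among the 27 members that were not tested, 15 had reads in 1 library only, 6 of them in 1 d replicate 2. The lowest were bmo-mir-3268-p5_1ss5GC, with 2.5 reads in 5 d replicate 1, and the windows bmo-mir-6497-p3_1ss18CT_1 to bmo-mir-6497-p3_1ss18CT_4, which list the same 2.5 reads in 3 d replicate 2. Opposite arms of mir-6497 were listed with 8.5 reads for p5_1ss12AG against 2.5 for p3_1ss5AG_2, and 8.5 for p5_1ss4AG against 6 for p3_1ss1TA, all too few to compare. For 14 members every listed hairpin had a free energy above -15 kcal/mol. These 14 held 263 reads, or 0.0164% of the reads of the group, and 1 of them, mir-3720-p5, was tested. The tested members were mostly known forms, with 28 variants, 6 miRBase sequences and 8 new arms.

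By sequence, the group was led by a 5′ T in 32 of 69 sequences (46.4%), beside 56.9% of the 759, but by 76.1% of its reads. Most reads were 22 nt long (75.8%). The 69 sequences had 51 distinct seeds, of which 11 were shared by more than 1 member. A further 31 sequences outside the group had a seed of a member, and 21 of these were predicted candidates. A hairpin of another sequence lay within 10 kb on the same strand for 18 members.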

How the data were processed

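Small RNA of 9 libraries was taken from the deposited expression table. Cleaning was done by the authors with ACGT101-miR, and reads of mRNA, Rfam families and repeats were discarded before the search of miRBase and the genome and the folding with RNAfold. For the genome build, no name is given in the sources read. Estimated counts per entry were assigned by the authors, and some reads are split between entries. A normalized signal was derived by the authors by multiplying each library with 1 factor, between 0.566 and 2.49. The hairpin energies and lengths were used as deposited, and 0 value columns were of samples outside the labels.

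Each mature sequence was taken once, whatever its number of entries, and estimated counts were rounded to whole numbers. The main test was the quasi-likelihood F-test of edgeR 4.0.16 in R 4.3.3, with TMM factors, filterByExpr and all 9 libraries in 1 model. The adjusted p is by Benjamini-Hochberg over 341 tested sequences, with a threshold of 0.05, and the SE is the absolute log2 fold change divided by the square root of F. Levels are TMM-normalised CPM. Exact permutation tests were 2-sided for single members and used 280 groupings for log2 arm ratios with a pseudocount of 0.5 CPM, where the smallest p is 0.00357. DESeq2 1.42.0 and limma 3.58.1 were alternatives, with other scalings and filters, an unadjusted p, the replicate number as a block, and each library left out. Depths cover counting error only. The edgeR script was tested on simulated data. Python 3.11.15, pandas 2.3.3, numpy 2.4.6, scipy 1.17.1 and matplotlib 3.10.9 were used.

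Named members were the 8 with the highest mean CPM, the 8 others with the smallest unadjusted p, those whose 1 d and 5 d libraries did not overlap, miR-3049, hairpins with both arms listed, the 3 largest groups by seed or position, and the 5 lowest untested members. Other names were added with their values in view. The members and the lists of roles were chosen with earlier results of these data known.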

Additional observations from a re-analysis of the deposited data

How the results depend on the processing

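The count of members called stayed at 0 under every adjusted test run, with DESeq2, limma, 4 other scalings, other filters, the 6 libraries compared, summed forms and each library left out. With an unadjusted p it was 1 for 3 d vs. 1 d, 2 for 5 d vs. 1 d and 2 over all phases. The unadjusted test on normalised values in the study's methods called 2 members (of 29 sequences) for 3 d vs. 1 d (1 with a limit of 1 on the log2 fold change), 1 for 5 d vs. 3 d and 1 over all phases. The call with the limit was mse-mir-316-p3, with 0 reads at 1 d. Whether the replicate numbers pair the libraries cannot be told from these data. Correlations of deviations ran from -0.386 to 0.417 between libraries with the same number. Between libraries with different numbers they ran from -0.512 to 0.495. The tested members highest in replicate 1 of every phase were miR-278-3p, miR-965-3p, miR-1000-5p, miR-87b-3p, miR-92b-3p, miR-307-3p, miR-219-5p and miR-981. With the replicate number as a block, 0 members were called.

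Without miR-278-3p the share of reads was 5.91% at 1 d, 6.62% at 3 d and 6.21% at 5 d. The 5 d minus 1 d arm ratio of mir-3759 was -0.90, and 0.78 with a pseudocount of 5 CPM, since the p5 arm had 0 reads in 6 libraries. Members with a neighbouring hairpin numbered 5 within 1000 nt and 29 within 50000 nt. Of 18 fold changes of named members, 15 kept their sign in every alternative, and 380 of 391 alternative values lay within 1 SE. The other 3 (miR-278-3p, miR-281-3p and miR-279d-3p) had main values of 0.02, 0.16 and 0.11. For mir-3759-p5 the study's test gave no finite fold.

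Depth limits the low members most, since 1 read was between 0.30 and 1.23 CPM. An adjusted p above 0.05 with 3 libraries per phase does not show equal levels.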
